A study of Mus musculus with 10 samples.

Results

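RNA from mouse embryonic stem cells in which both SVA elements had been removed was compared with RNA from cells in which only the SVA_D element had been removed, gene by gene. The double deletion line is labelled conv-dSVA_F&D and the single deletion line conv-dSVA_D, with 2 libraries each, and by label the lines differ by the SVA_F deletion. Genes entered the comparison when their mean over the 7 stem cell libraries was at least 10 normalized counts, which kept 15240 of the 54456 genes in the table. Just under this minimum lay Stpg3, with a mean of 9.99, and Tmprss2, with 9.999. Just above it lay Gm37108, with 10.001, and Gm9905, with 10.007.

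All lines were C57BL/6J embryonic stem cells grown on gelatin in serum, LIF and inhibitors of MEK (PD0325901) and GSK3 (CHIR99021). The genotype label of both deletion lines holds the same series of steps at Taf1: a loxP site in intron 24, a humanized and then mousified Taf1 marked as converted, the integration and swap vectors, and a Cre plasmid. The single deletion line carries in addition the step dSVA2, and the double deletion line carries dSVA2 together with SVAdel. A further line with the same converted locus and only SVAdel, conv-dSVA_F, gave 2 libraries, and unedited MK6 cells, labelled as wild type, gave 1. The labels name 1 line per genotype and no clone, so the genotype and the history of each line cannot be told apart. They do not say that the libraries of a line came from separate cultures, so p-values measure the spread between these libraries, which may be technical. The remaining libraries of the series, from an unconverted XDP line and from striatum, were not analysed here.

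SVA elements are composite retrotransposons found in hominids, named for their SINE-R, tandem repeat and Alu-like segments and divided into subfamilies lettered from A to F. Many lie in introns, where they can act as promoters, silencing targets or splice acceptors. An SVA_F insertion in an intron of TAF1 causes X-linked dystonia-parkinsonism, in which full-length TAF1 RNA is reduced and part of an intron is retained. TAF1 is the largest subunit of TFIID, the complex that binds core promoters and recruits RNA polymerase II.

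Of the 15240 genes tested, 482 (3.16%) differed between the lines at an adjusted p under 0.05 in limma. In the double deletion line 298 genes (1.96%) were higher, with a median difference of 1.10 on the log2 scale, and 184 (1.21%) were lower, with a median of -0.78. The smallest difference that passed was 0.47. Counts of called members in the lists below are to be read beside these shares over all genes tested. Library totals were 22385569 and 26562418 reads in the single deletion line, and 23541885 and 16588467 in the double deletion line. A count of 0 in the 7 libraries allows a level of up to 2.45 to 4.18 normalized counts, for counting error only. The number of calls changed strongly when a single library was left out. Fewer libraries also change the power of the test, and this was not separated from a dependence on single libraries. Without replicate 1 of the single deletion line limma called 0 genes (1858 at an unadjusted p under 0.05; edgeR called 0 and DESeq2 367). Without replicate 2 of that line limma called 42, edgeR 4 and DESeq2 381. The list counts that follow are therefore all 0 in limma without the first of these libraries. Without the second they are 4 for the 2-cell-like genes, 3 for Y-linked genes, 2 for basement membrane genes, 1 for TFIID subunits, 1 for imprinted genes, and 0 for the Igf axis, germline genes, DNA repair genes and structural RNAs.

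Marker lists placed both lines among embryonic stem cells. Pou5f1, Sox2, Nanog, Zfp42 and Esrrb summed to 70242 to 72769 normalized counts in the single deletion line and to 57569 to 58808 in the double deletion line, with Nanog lower by the test. The 8 trophoblast markers summed to 1092 to 1192 against 1745 to 2594, with Krt8, Krt18 and Ascl2 higher and Elf5 at 0 in both double deletion libraries. Not all members rose in both of these libraries. Cdx2 was at 13.44 and 10.61 against 10.99 and 108.66, and Eomes at 444.57 and 400.03 against 252.7 and 426.27. Gata3 (18.24 and 18.78 against 32.96 and 117.01) and Tfap2c (321.67 and 458 against 465.12 and 611.54) were above in both, without being called. Fibroblast feeder markers summed to 93.1 to 118 against 139 to 216, with Twist2 at 0 in all 7 libraries and Col3a1 at 0 in the 4 libraries compared. Primitive endoderm markers summed to 70.1 to 91.4 against 198 to 228, neural markers to 1296 to 1620 against 885 to 1573, and mesoderm markers to 55.5 to 125 against 35.7 to 116, with Mesp1 at 0 in all 4 libraries.

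**Figure D1:**
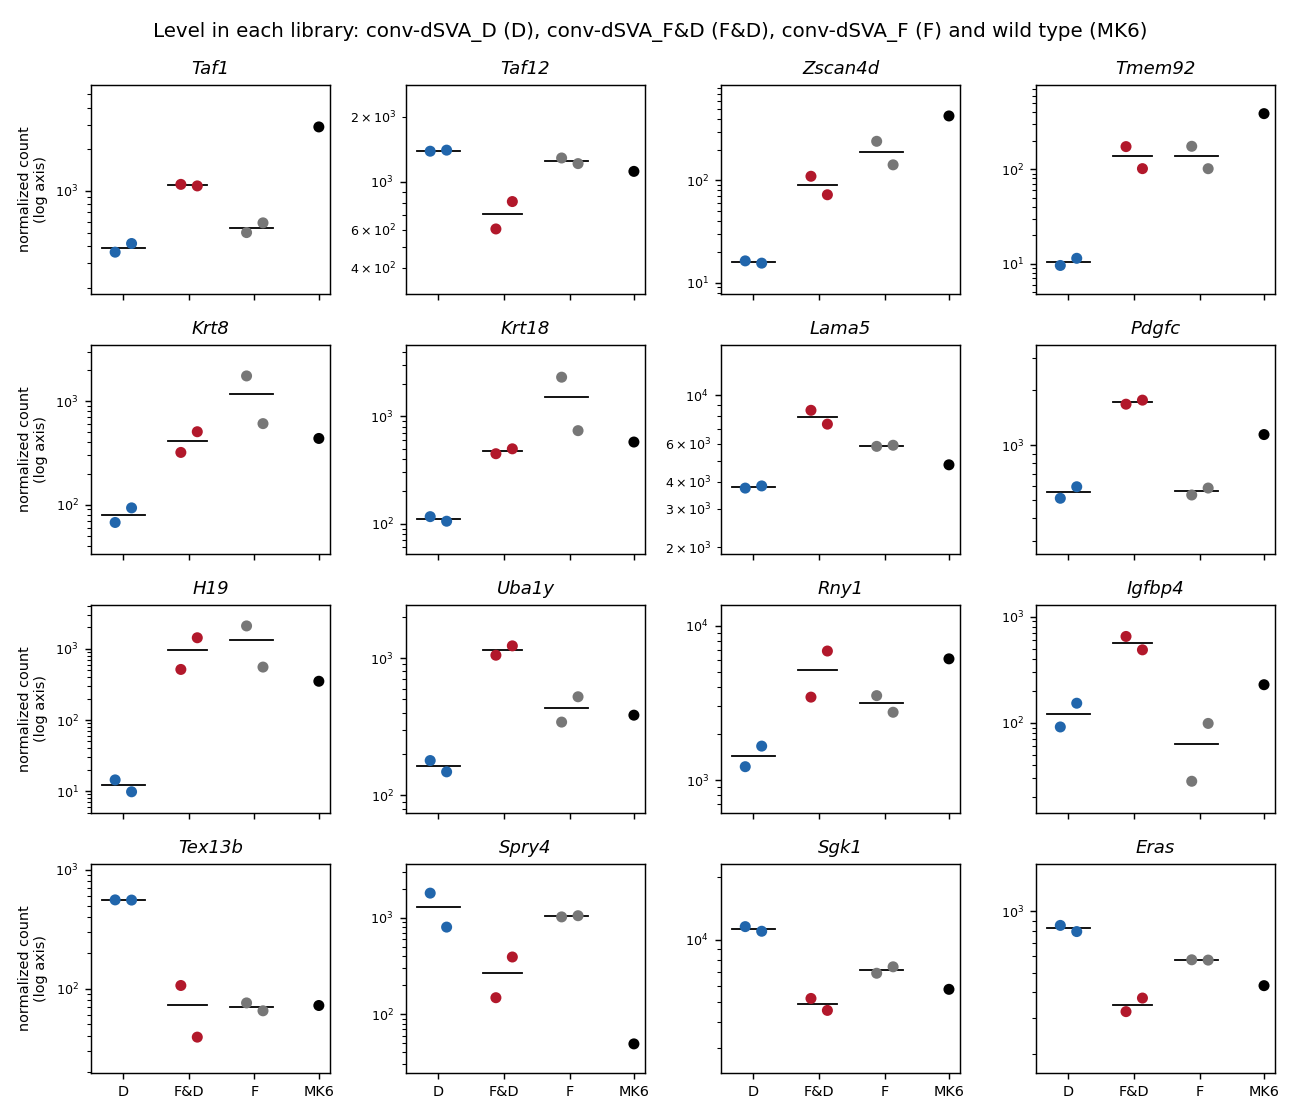
Each panel plots normalized counts (log axis) of 1 gene in each of the 7 libraries, grouped by line. In most of the panels the 2 libraries of the double deletion line lie together on 1 side of the 2 single deletion libraries, and the position of conv-dSVA_F and MK6 differs from gene to gene.

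Taf1 itself, on chromosome X from 101532734 to 101601789 in GRCm38, was at 362 and 418 normalized counts in the single deletion line and at 1116 and 1088 in the double deletion line. The groups did not overlap, and the difference was 1.50 ± 0.15 (SE) on the log2 scale, with an adjusted p of 0.00456. The conv-dSVA_F libraries held 501 and 589, closer to the single deletion line, and the wild-type library held 2898, above all the edited libraries. The counts do not check the deletions themselves, since an SVA is no feature of the mouse table, and the sources used here do not say how reads from humanized sequence were counted. Of 22 tested genes beside Taf1 on the X chromosome, 1 was higher, and their median difference was 0.29 against -0.003 over all genes.

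Several other TFIID subunits were lower in the double deletion line. Of 19 subunits tested, 1 (Taf1) was higher and 3 were lower (21.1% called, against 3.16% of all genes tested). Both double deletion libraries lay below both single deletion libraries for 11 of the 19 and above them for 3, where 49.9% of all genes had no overlap in one direction or the other. Taf12, a histone-fold subunit shared with the SAGA coactivator, was at 1388 and 1403 in the single deletion line and at 605 and 811 in the double deletion line (log2 difference -0.99 ± 0.16, adjusted p 0.0161). Taf5, a WD40-repeat scaffold of TFIID, was at 1781 and 1843 against 1138 and 928 (-0.82 ± 0.15, adjusted p 0.0226). Taf6, another histone-fold subunit, was at 2222 and 2039 against 1288 and 1304 (-0.72 ± 0.14, adjusted p 0.0327). The wild-type library lay below the double deletion line for Taf5 (922) and Taf6 (1146) and between the lines for Taf12 (1119). Taf2 did not pass, with a difference of -0.43 and an adjusted p of 0.0668. Without replicate 1 of the single deletion line 0 of the 19 subunits passed in limma, and without its replicate 2 only Taf1 did.

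Of 29 general factors and polymerase II subunits 2 (6.90%) were lower, against 1.21% of all genes tested, with a median of -0.20 over the list. Gtf2a1, which encodes the large subunits of TFIIA, was at 2825 and 2248 in the single deletion line and 1419 and 1195 in the double deletion line (-0.95 ± 0.15, adjusted p 0.0161). Polr2h, a small subunit shared by the nuclear RNA polymerases, differed by -0.50, with an adjusted p of 0.0492. Of 30 Mediator subunits 1 was lower, Med21, at 1687 and 1857 against 848 and 1021 (-0.93, adjusted p 0.0139). Hexim1, an inhibitor of the elongation factor P-TEFb that was chosen after its values were seen, was at 1880 and 1863 against 1130 and 1114 (-0.74, adjusted p 0.0205).

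Genes of the 2-cell-like state formed the list with the largest median difference. This state is a rare, reversible condition of embryonic stem cells in which transcripts of the mouse 2-cell embryo reappear, among them the Zscan4 cluster on chromosome 7, a zinc finger family linked to telomere maintenance. Of 20 tested members 9 (45%) were higher in the double deletion line, against 1.96% of all genes tested. The median over the 20 was 2.28, and all 20 lay above 0. The lines did not overlap in 16, where 49.9% of all genes had no overlap in one direction or the other. Some members are near copies of each other and are no independent counts. The summed level of the 25 members in the table was 183 to 228 normalized counts in the single deletion line and 868 to 1468 in the double deletion line. It was 2000 and 1134 in conv-dSVA_F and 5070 in MK6, and these libraries also counted toward the minimum mean. The number called fell to 0 without replicate 1 of the single deletion line, to 4 without its replicate 2, to 6 without either double deletion library, and to 5 without either conv-dSVA_F library.

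The 250 bases directly before the RefSeq start sites of Zscan4c and of Zscan4d (GRCm38.p6) are shown because these neighbouring copies moved together. Zscan4c lies on the plus strand at chr7:11005495-11005744 and Zscan4d on the minus strand at chr7:11166149-11166398. Both are written 5′ to 3′, with a TATA box (TATAAA) and an AP-1 motif (TGANTCA) in capitals. Searches for an E-box (CANNTG) and for a GC box (GGGCGG) were added.
Zscan4c: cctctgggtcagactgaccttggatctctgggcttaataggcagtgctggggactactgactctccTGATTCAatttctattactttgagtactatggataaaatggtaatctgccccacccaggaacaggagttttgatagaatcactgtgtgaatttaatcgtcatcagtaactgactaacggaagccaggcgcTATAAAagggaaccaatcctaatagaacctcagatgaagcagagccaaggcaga
Zscan4d: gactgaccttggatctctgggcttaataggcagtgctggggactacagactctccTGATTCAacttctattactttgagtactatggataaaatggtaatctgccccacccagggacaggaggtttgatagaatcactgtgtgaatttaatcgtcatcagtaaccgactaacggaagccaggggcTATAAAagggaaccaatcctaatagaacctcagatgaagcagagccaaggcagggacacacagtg
On either strand, each window held 1 TATA box, 1 AP-1 motif and 1 E-box, and no GC box. Of all 32851 RefSeq promoter windows of this length, 12.4% held the TATA box, 6.75% the AP-1 motif, 66.2% an E-box and 32.7% a GC box. At a shift of 11 bases the windows were identical at 232 of 239 bases (97.1%). A match is a description of letters and no evidence of binding. Copies this alike can share reads, so values of single Zscan4 genes are uncertain.

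Zscan4c was at 22.1 and 8.98 normalized counts in the single deletion line and at 97.0 and 80.8 in the double deletion line (log2 difference 2.56 ± 0.46, adjusted p 0.0226). Zscan4d was at 16.3 and 15.5 against 110 and 72.4 (2.42 ± 0.39, adjusted p 0.0161). In both genes the groups did not overlap, and conv-dSVA_F (140 and 99.5 for Zscan4c, 242 and 142 for Zscan4d) and MK6 (371 and 428) were higher still. Zscan4e was at 1.92 and 11.4 against 81.5 and 51.5, with an adjusted p of 0.0329. Zscan4f did not pass, with a difference of 1.97 and an adjusted p of 0.0643. Zscan4a (3.37, adjusted p 0.00955) and Tmem92, a transmembrane protein gene (3.55 ± 0.42, adjusted p 0.00874), were also among the 9 higher members.

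The Eif1ad genes, multicopy relatives of a translation initiation factor, were higher as well, and as near copies they are uncertain singly. Eif1ad15, which was not on the list but among the largest differences, was at 24.97 and 48.2 in the single deletion line, 199 and 178 in the double deletion line and 1274 in MK6 (2.40, adjusted p 0.0136). Eif1ad7 was at 32.7 and 48.2 against 212 and 131 (2.04, adjusted p 0.0392), and Eif1ad8 differed by 1.88 (adjusted p 0.0408). Eif1ad2 was at 0 and 2.45 against 22.9 and 48.8 (adjusted p 0.0256), and Tcstv3, another gene of the 2-cell embryo, at 0 and 0.82 against 21.97 and 11.1 (adjusted p 0.0495). For these last genes the single deletion line was at or under the level that a count of 0 allows, and no fold is given. The wild-type library was above the double deletion line in each of Eif1ad7, at 879, Eif1ad15 and Tcstv3, at 172. Outside the list, Platr14, a noncoding transcript named for its association with pluripotency, was at 580 and 413 against 1475 and 2317 (1.91 ± 0.23, adjusted p 0.00874), with 569 and 626 in conv-dSVA_F and 1994 in MK6.

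**Figure D2:**
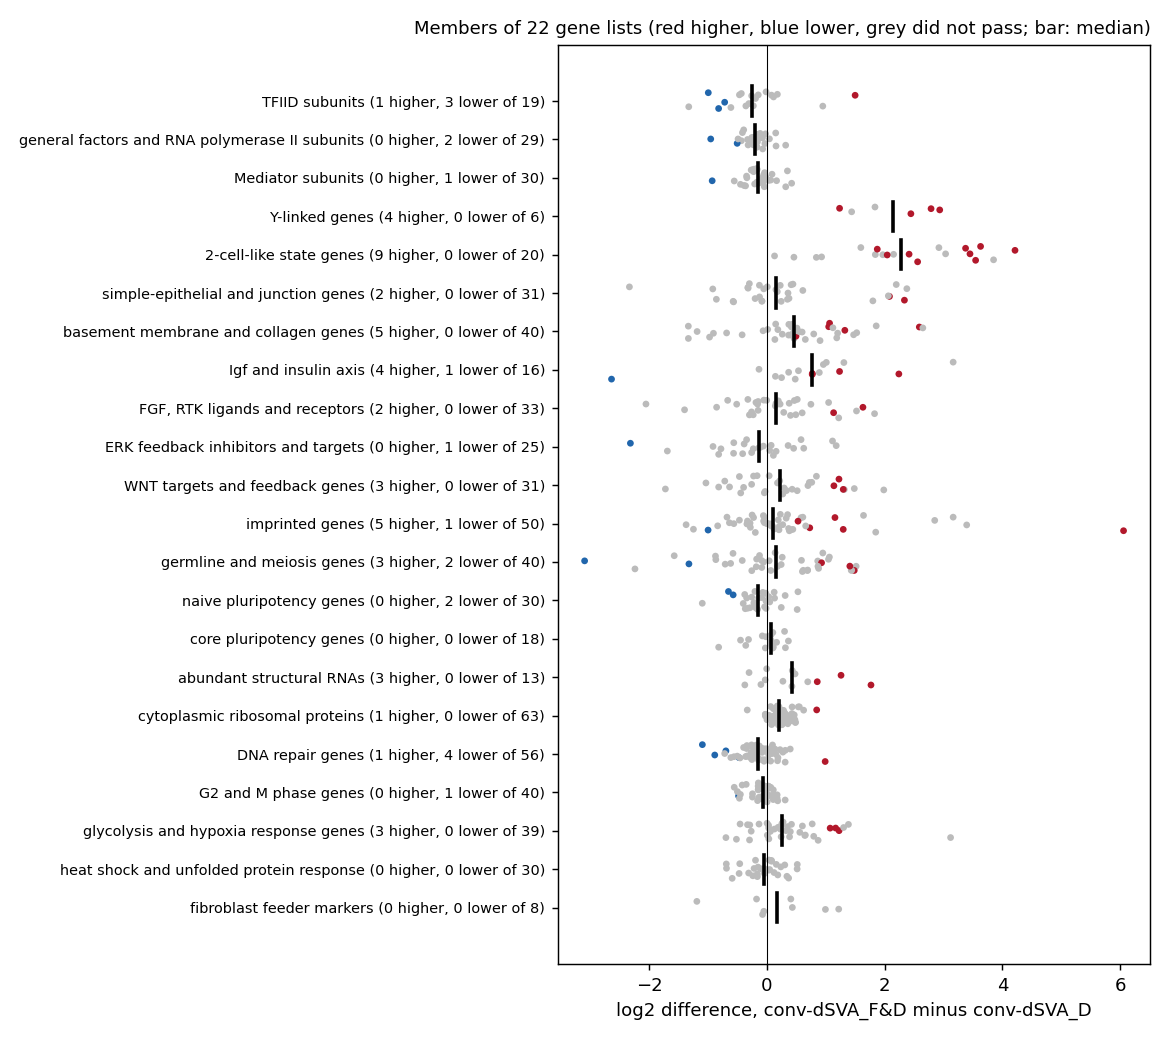
Points give the log2 difference (conv-dSVA_F&D minus conv-dSVA_D) of each tested member of gene lists, with the list median as a bar and members past the test in colour. The 2-cell-like genes lie wholly to the right of 0 with a median of 2.28, while TFIID subunits have a median of -0.26 with Taf1 apart at 1.50.

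The paired keratins of simple epithelia, Krt8 and Krt18, which assemble together into intermediate filaments, were higher in the double deletion line. They lie beside each other on chromosome 15, and the 250 bases before each RefSeq start (GRCm38.p6) are shown because they are neighbours that moved together. Krt8 is on the minus strand at chr15:102004343-102004592 and Krt18 on the plus strand at chr15:102027966-102028215. E-box letters (CANNTG) are in capitals.
Krt8: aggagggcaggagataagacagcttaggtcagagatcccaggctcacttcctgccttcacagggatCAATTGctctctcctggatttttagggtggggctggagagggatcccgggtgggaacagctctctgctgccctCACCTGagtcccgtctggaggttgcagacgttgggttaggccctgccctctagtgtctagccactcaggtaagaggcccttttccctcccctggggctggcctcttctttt
Krt18: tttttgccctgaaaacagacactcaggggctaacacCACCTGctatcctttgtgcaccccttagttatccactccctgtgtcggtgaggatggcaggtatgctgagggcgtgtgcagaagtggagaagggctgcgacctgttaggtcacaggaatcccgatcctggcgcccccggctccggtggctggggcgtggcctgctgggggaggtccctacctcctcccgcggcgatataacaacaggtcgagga
The Krt8 window held 2 E-boxes and 3 CpG dinucleotides at 58.0% GC, and the Krt18 window 1 E-box and 12 CpG dinucleotides at 60.4% GC. Over all 32851 windows the medians were 6 CpG dinucleotides and 52.4% GC, and 66.2% held an E-box. By GENCODE, Krt8 ends at 102004482 and Krt18 starts at 102028180, so each window overlaps its GENCODE gene. The letters of the TATA box, the AP-1 motif and the GC box given for Zscan4 were not found in these windows.

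Krt8 was at 67.2 and 93.1 normalized counts in the single deletion line and 320 and 508 in the double deletion line (log2 difference 2.34 ± 0.43, adjusted p 0.0254). Krt18 was at 116 and 105 against 448 and 497 (2.08 ± 0.41, adjusted p 0.0303). Conv-dSVA_F replicate 1 stood above all other libraries in both genes, at 1765 and 2310, while its replicate 2 held 609 and 734, and MK6 held 438 and 575. Krt7 (2.38, adjusted p 0.0741) and Krt19 (2.20, adjusted p 0.0535) did not pass. These were the 2 called genes among 31 simple-epithelial and junction genes, whose median was 0.16, and without replicate 2 of the double deletion line limma called 0 of the 31. Both are also among the trophoblast markers given above, and the part of such cells in this result was not tested. Of 18 trophoblast factors and markers 1 was higher, Ascl2, a helix-loop-helix factor of the placental lineage, at 109 and 105 against 215 and 325 (1.30, adjusted p 0.0428).

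Of 40 tested basement membrane and collagen genes 5 (12.5%) were higher in limma, against 1.96% of all genes tested, and 35 did not pass. The list median was 0.46, with both double deletion libraries above both single deletion libraries for 25 members and below them for 6. Over all genes tested, 49.9% had no overlap in one direction or the other. DESeq2 called 14 higher and 3 lower. Lama5, a laminin alpha chain of early embryonic basement membranes, was at 3743 and 3830 in the single deletion line and 8530 and 7368 in the double deletion line (1.07 ± 0.11, adjusted p 0.00460). Both conv-dSVA_F libraries (5823 and 5891) lay between the lines, and MK6 was at 4789. Nid1, which links laminin to type IV collagen, was at 3170 and 3149 against 8186 and 5238 (1.05, adjusted p 0.0208). Col5a3, a fibrillar collagen chain, was at 30.7 and 48.2 against 245 and 229 (2.59 ± 0.36, adjusted p 0.0110), where all 3 other libraries were at 120 or below. Lama3, on chromosome 18, was at 594 and 374 against 940 and 1488 (1.33, adjusted p 0.0373). Agrn, a heparan sulfate proteoglycan, was at 4448 and 3886 against 6117 and 5622 (0.50, adjusted p 0.0495). Itgb4, the integrin partner of laminin in hemidesmosomes, was chosen after its values were seen and was at 52.8 and 57.2 against 231 and 174 (1.85, adjusted p 0.0171).

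Genes of growth factor signalling differed in both directions. Fgf2, a ligand that activates ERK signalling and was chosen after its values were seen, was at 145 and 152 normalized counts in the single deletion line and at 3.66 and 0 in the double deletion line, which corresponds to 4 reads and 0 reads (adjusted p 0.00957). The other libraries held 14.2 to 19.7. The single deletion line thus stood above all 5 other libraries in Fgf2.

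Among 33 FGF and receptor tyrosine kinase ligands and receptors 2 (6.06%) were higher, against 1.96% of all genes tested, with a median of 0.16. Pdgfc, a PDGF receptor ligand, was at 514 and 594 against 1671 and 1758 (1.63 ± 0.14, adjusted p 0.00368). For Pdgfc the conv-dSVA_F libraries, at 535 and 584, lay with the single deletion line, and MK6 lay between at 1142. Epha4, an ephrin receptor, was at 441 and 465 against 1026 and 965 (1.13, adjusted p 0.0161), with conv-dSVA_F higher at 2061 and 1404. Klb, the co-receptor for endocrine FGFs and no member of the list, was at 26.9 and 39.2 against 175 and 149 (2.28, adjusted p 0.0166).

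Spry4, a feedback inhibitor of ERK signalling on chromosome 18, was the 1 called gene of 25 ERK feedback inhibitors and targets. It was at 1811 and 803 in the single deletion line, 148 and 393 in the double deletion line, 1025 and 1055 in conv-dSVA_F and 49.1 in MK6 (-2.32 ± 0.44, adjusted p 0.0271). The order of the lines was therefore conv-dSVA_D and conv-dSVA_F together, then the double deletion line, then wild type. Among 29 immediate early genes 1 was higher and 1 lower. The lower was Junb, an AP-1 subunit on chromosome 8, at 288 and 352 against 139 and 89.2 (-1.51 ± 0.30, adjusted p 0.0326). The higher was Ccn1, a matricellular protein, at 355 and 310 against 578 and 669 (0.90, adjusted p 0.0392).

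Sgk1, a kinase activated downstream of PI3K and mTORC2, was at 11579 and 10999 against 5219 and 4571 (-1.21 ± 0.11, adjusted p 0.00368). Eras, a constitutively active Ras protein of embryonic stem cells on the X chromosome, was at 853 and 795 against 321 and 375 (-1.24 ± 0.16, adjusted p 0.00955). In both genes MK6, at 5774 for Sgk1 and 431 for Eras, was closer to the double than to the single deletion line, and conv-dSVA_F lay farther from the double deletion line than MK6 did. Pdpk1, the kinase that phosphorylates Sgk1, was chosen after its values were seen and differed by -0.54 (adjusted p 0.0497).

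Of 16 tested genes of the Igf and insulin axis 4 were higher and 1 was lower, with a median of 0.77. The share called was 31.2%, against 3.16% of all genes tested. Igfbp4, a secreted IGF binding protein, was at 91.2 and 153 against 650 and 486 (2.24 ± 0.51, adjusted p 0.0479). Igfbp7, a distant relative of that family, was at 76.8 and 118 against 13.7 and 15.3 (-2.64 ± 0.58, adjusted p 0.0434). Irs2, an adaptor of the insulin and IGF receptors, was at 190 and 178 against 449 and 421 (1.24, adjusted p 0.0165). All 5 other libraries were below the double deletion line in Igfbp4 and in Irs2. Igf2bp2, an RNA-binding protein of Igf2 and other transcripts, was at 1556 and 1721 against 3130 and 2499 (0.77, adjusted p 0.0226). Igfbp2 was at 7114 and 9919 against 13772 and 14933 (0.77, adjusted p 0.0495). Igf2 itself was near the lower limit of the table, at 0.96 and 0.82 against 5.49 and 43.2, and did not pass (adjusted p 0.154).

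**Figure D3:**
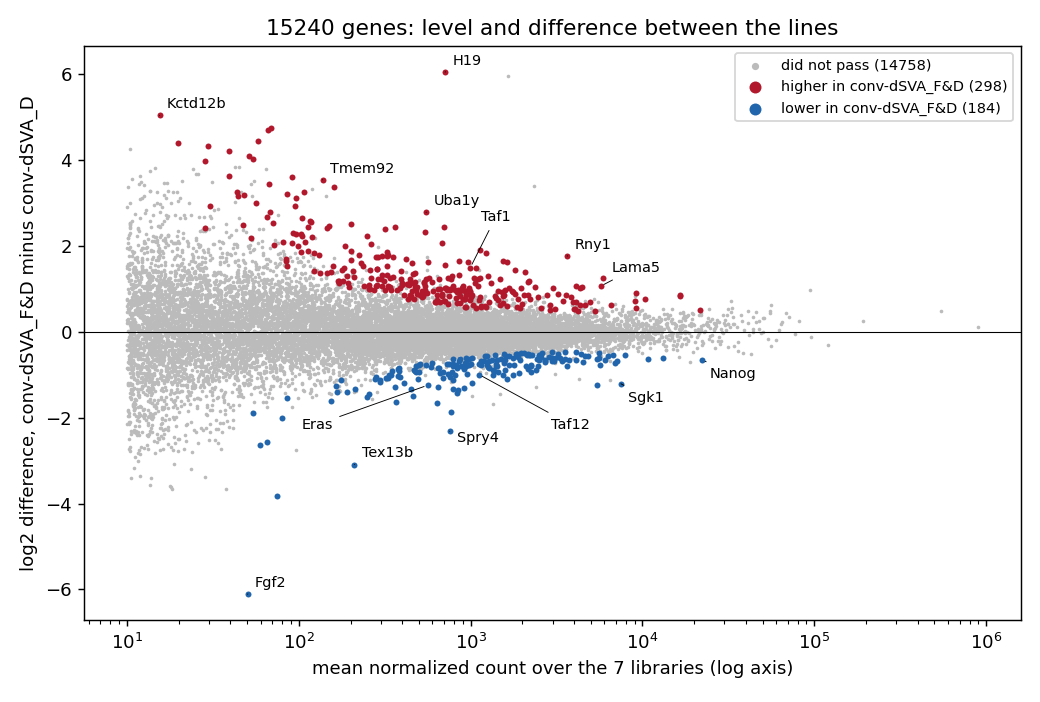
The mean level over the 7 libraries (normalized counts, log axis) is plotted against the log2 difference conv-dSVA_F&D minus conv-dSVA_D for the 15240 genes tested, with the 482 called genes in colour and named examples labelled. The median difference is 1.10 for the higher calls and -0.78 for the lower calls.

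Imprinted genes are expressed from 1 parental allele and depend on DNA methylation kept through culture. Of 50 tested 5 were higher and 1 lower (12% called, against 3.16% of all genes tested), with a median of 0.11. H19, the maternally expressed noncoding RNA next to Igf2, was at 14.4 and 9.80 in the single deletion line and 514 and 1432 in the double deletion line (6.06 ± 0.60, adjusted p 0.00407). It was at 2100 and 554 in conv-dSVA_F and at 350 in MK6, so the single deletion line was the low group. Peg3, a paternally expressed zinc finger gene, was at 1176 and 937 against 1856 and 2959 (1.16, adjusted p 0.0271). Slc38a4, an amino acid transporter, was at 2407 and 2361 against 3856 and 4054 (0.73, adjusted p 0.0161), and Gab1, an adaptor of receptor tyrosine kinases, at 2995 and 2995 against 4392 and 4261 (0.53, adjusted p 0.0497). Ascl2, described above, was the remaining higher gene. The lower gene was Mest, on chromosome 6, at 1879 and 1300 against 669 and 915 (-0.997, adjusted p 0.0302), with 3465 and 3522 in conv-dSVA_F and 537 in MK6. Peg10 differed widely between the single deletion libraries, at 387 and 42.5, against 1032 and 1803, and did not pass (adjusted p 0.0692).

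The Y chromosome gave 4 higher genes of 7 tested (57.1%, against 1.96% of all genes tested). All 4 are listed Y genes, of which 6 were tested with a median of 2.14. Uba1y, a ubiquitin-activating enzyme, was at 180 and 149 against 1049 and 1227 (2.79 ± 0.23, adjusted p 0.00368). Uty, a homologue of the H3K27 demethylase Utx, was at 153 and 269 against 1047 and 1173 (2.45, adjusted p 0.00793). Zfy1, a zinc finger factor of spermatogenesis, was at 39.4 and 20.4 against 255 and 196 (2.94, adjusted p 0.0177). Ddx3y, an RNA helicase, was at 890 and 940 against 2181 and 2131 (1.24, adjusted p 0.00407). The double deletion line was above all 5 other libraries in each of these genes, since MK6 held 384, 737, 99.3 and 1491 in that order. Kdm5d (30.7 and 23.7 against 87.9 and 111, adjusted p 0.0698) did not pass. Eif2s3y was at 211 and 156 against 1327 and 184 (adjusted p 0.280), and replicate 2 of the double deletion line lay between the single deletion libraries. Gm47283 was at 7.68 and 18.8 against 34.8 and 22.3 (adjusted p 0.375).

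Genes of the germline and of X-linked testis families were called in both directions. Tex13b, a testis-expressed X-linked gene, was at 559 and 557 in the single deletion line and at 106 and 39.0 in the double deletion line (-3.09 ± 0.42, adjusted p 0.0110). The other 3 libraries were at 65.0 to 75.7, so the single deletion line stood above all 5. Tro, an X-linked MAGE family gene, was at 819 and 888 against 310 and 297 (-1.49, adjusted p 0.0118), with 265 to 388 in the other 3 libraries. Nxf7, an X-linked export factor relative, was at 0 and 3.27 against 48.5 and 58.5 (adjusted p 0.0255), where the single deletion libraries held 0 and 4 reads. These were the 3 called genes of 29 tested X-linked testis and MAGE genes (10.3%, against 3.16% of all genes tested), whose median was -0.22. Kctd12b, an X-linked gene chosen after its values were seen, was at 0 in both single deletion libraries and at 28.4 and 36.2 in the double deletion line, at least 12.1-fold higher against the mean limit of 3 reads per library.

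Of 40 tested germline and meiosis genes 3 were higher and 2 lower (12.5% called, against 3.16% of all genes tested), with a median of 0.16. Tdrd12, a tudor protein of the piRNA pathway, was at 560 and 573 against 1354 and 1860 (1.48, adjusted p 0.0139). Aurkc, a meiotic aurora kinase, was at 112 and 123 against 367 and 268 (1.41, adjusted p 0.0260), and Hormad1, a meiotic axis protein, at 461 and 460 against 773 and 999 (0.93, adjusted p 0.0201). For Tdrd12 and Aurkc, MK6 was above the double deletion line (2164 and 423), and conv-dSVA_F was around the single deletion line or below it (405 and 631 for Tdrd12, 75.7 and 76.2 for Aurkc). Stag3, a meiotic cohesin subunit, was at 1057 and 1333 against 519 and 433 (-1.32, adjusted p 0.00942), and Tex13b was the other lower gene. Dnai2, an axonemal dynein chain, was at 10.6 and 44.1 against 229 and 209 (3.27, adjusted p 0.0302). It was the 1 called gene of 47 cilium genes (2.13%, against 3.16% of all genes tested). The median of the cilium list was -0.15, opposite in sign to Dnai2.

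Of 30 naive pluripotency genes 2 (6.67%) were lower, against 1.21% of all genes tested, with a median of -0.15. Nanog, a homeobox factor on chromosome 6, was at 28144 and 27769 against 19514 and 16246 (-0.65 ± 0.13, adjusted p 0.0282), with MK6 at 20486 and conv-dSVA_F at 22731 and 20492. Stat3, the factor activated by LIF, was at 3320 and 2990 against 2194 and 2051 (-0.57, adjusted p 0.0398). In both genes the single deletion line was the highest group. Of 18 core pluripotency genes limma called 0 (1 at an unadjusted p under 0.05; edgeR and DESeq2 called 0).

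Targets of signals that act on stem cells held a few higher genes, where 1.96% of all genes tested were higher. Of 31 WNT targets and feedback genes 3 were higher, Ascl2 again, Notum, a WNT deacylase (1.23, adjusted p 0.0274), and Tnfrsf19 (1.14, adjusted p 0.0392), while Lef1, a WNT effector, did not pass (1.99, adjusted p 0.0698). Of 31 Nodal and BMP genes 2 were higher, Skil, a SMAD corepressor (0.96, adjusted p 0.0373), and Id2, a BMP target (1.61, adjusted p 0.0398). Ptch1, the Hedgehog receptor, was the 1 higher gene of 23 Notch and Hedgehog genes (0.84, adjusted p 0.0271). Of 23 YAP and TEAD targets 2 were higher, Ccn1, described above, and Wwtr1, which encodes the coactivator TAZ and differed by 0.75 (adjusted p 0.0161). Of 13 primitive endoderm genes 1 was higher, with a median of 0.72. This was Lrp2, an endocytic receptor, at 421 and 318 against 1025 and 1247 (1.63, adjusted p 0.0392), with 5304 and 2110 in conv-dSVA_F.

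Of 13 tested structural RNAs 3 (23.1%) were higher in the double deletion line, against 1.96% of all genes tested, and 10 did not pass. The list median was 0.43, with 8 of 13 above 0, and turned to -0.08 without replicate 2 of the double deletion line, when 1 of the 13 was called. Rny1 and Rny3 are Y RNAs, short RNA polymerase III transcripts that bind the Ro60 protein, and lie beside each other on chromosome 6, from 47781624 to 47788180. Rny1 was at 1221 and 1660 against 3444 and 6844 (1.77 ± 0.28, adjusted p 0.0161), and Rny3 at 2528 and 3606 against 6249 and 8378 (1.26, adjusted p 0.0179). In MK6 they held 6092 and 8997. Ro60, chosen after its values were seen, was at 274 and 282 against 570 and 585 (1.05, adjusted p 0.0157), and the other 3 libraries (516 to 546) were with the double deletion line. Snora73b, a box H/ACA snoRNA, was at 8986 and 8908 against 14845 and 17689 (0.86, adjusted p 0.0186), with 34720 in MK6. Among all 117 snoRNAs tested 8 (6.84%) were higher, against 1.96% of all genes tested, with a median of 0.48. Recovery of such short RNAs can differ between preparations, which was not tested.

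Of 63 ribosomal protein genes 59 lay above 0, with a median of 0.22, where 7581 of all 15240 genes tested lay above 0. In limma 1 (1.59%) passed, Rps29 (0.85, adjusted p 0.0226), against 1.96% higher among all genes tested. The number called was 3 in edgeR, 13 in DESeq2, and 9 in limma without replicate 1 of the double deletion line. Rplp1 did not (0.63, adjusted p 0.0515). Of 9 transcripts of the mitochondrial genome limma, edgeR and DESeq2 called 0, and 0 were at an unadjusted p under 0.05, with a median of -0.22.

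Of 56 DNA repair genes 4 were lower and 1 higher (8.93% called, against 3.16% of all genes tested), with a median of -0.14. Ogg1, the glycosylase that removes oxidized guanine, was at 615 and 600 against 257 and 313 (-1.09, adjusted p 0.0161). Brca2 (-0.69, adjusted p 0.0266), Rad52 (-0.88, adjusted p 0.0473) and Atm (-0.47, adjusted p 0.0497), all of double-strand break repair, were the other lower genes, and Rad54b was the higher one (0.99, adjusted p 0.0392). Ogg1 and Rad52 lie on chromosome 6. Among 58 histone genes 1 was higher, H2ac10 (0.94, adjusted p 0.0282), and 1 was lower, H2bc1 (-1.18, adjusted p 0.0271). Slbp, which binds histone mRNA ends (-0.69, adjusted p 0.0255), was the 1 lower gene of 42 G1 and S phase genes, and Birc5, a chromosomal passenger protein (-0.48, adjusted p 0.0497), that of 40 G2 and M phase genes.

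Of 34 apoptosis genes 2 were higher and 2 lower (11.8% called, against 3.16% of all genes tested). The higher were Mcl1 (0.57, adjusted p 0.0275) and Bcl2l2 (1.09, adjusted p 0.0428), members of the BCL2 family that protect cells from death. Bid, a member of the same family that promotes death and lies on chromosome 6, was lower (-1.35, adjusted p 0.0161), and Birc5, which also inhibits apoptosis, was the other lower gene.

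A few genes of energy metabolism were called, in both directions. Of 39 glycolysis and hypoxia genes 3 (7.69%) were higher, against 1.96% of all genes tested, with a median of 0.26. They were Hk1, the first enzyme of glycolysis, at 670 and 1003 against 1969 and 1518 (1.08, adjusted p 0.0274), Pfkm, a phosphofructokinase (1.23, adjusted p 0.0430), and Ndrg1, a hypoxia-responsive gene (1.17, adjusted p 0.0495). Ckmt1, the mitochondrial creatine kinase, was at 32.7 and 58.8 against 326 and 202 (2.52 ± 0.36, adjusted p 0.0128), and Ak4, a mitochondrial adenylate kinase, differed by 1.06 (adjusted p 0.0405). These were the 2 called genes of 14 in their list (14.3%, against 3.16% of all genes tested).

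Of 32 genes of acyl-CoA and fatty acid handling 3 (9.38%) were lower, against 1.21% of all genes tested, with a median of -0.10. Both double deletion libraries lay below both single deletion libraries for 12 members and above them for 10, where 49.9% of all genes had no overlap. DESeq2 called 2 members higher and 3 lower. Acot13, an acyl-CoA thioesterase, was at 530 and 686 against 201 and 187 (-1.63 ± 0.20, adjusted p 0.00942). Eci1 (-0.76, adjusted p 0.0226) and Decr1 (-1.12, adjusted p 0.0496), auxiliary enzymes for the oxidation of unsaturated fatty acids, were lower too. Of 33 cholesterol synthesis and SREBP targets 2 were higher, Hmgcs1 at 2883 and 2762 against 4944 and 5036 (0.82, adjusted p 0.00961) and Elovl6, a fatty acid elongase (0.48, adjusted p 0.0495). Slc39a14, a zinc and iron importer, was at 1632 and 887 against 322 and 626 (-1.42, adjusted p 0.0495), with 119 in MK6. Steap3, a ferrireductase (1.86, adjusted p 0.0372), and Gstm1, a glutathione transferase (1.16, adjusted p 0.0161), were the 2 higher genes of 25 in iron and redox handling.

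Interferon and autophagy genes held further calls, where 1.96% of all genes tested were higher and 1.21% lower. Of 27 interferon genes 3 were higher: H2-K1, a class I histocompatibility antigen (1.80, adjusted p 0.0480), Ifitm1 (1.27, adjusted p 0.0483) and the transcription factor Irf1 (0.70, adjusted p 0.0444). Of 47 lysosome and autophagy genes 3 were higher and 1 lower, among them Atg14, a subunit of the autophagy lipid kinase complex (0.84, adjusted p 0.0128), and Atg7, an autophagy enzyme on chromosome 6 (-0.91). Of 24 neural progenitor and neuronal genes 2 were higher, Olig2 (1.08) and Mbp (2.29), with a median of 0.41. Of 31 dystonia and parkinsonism genes 2 were higher, with a median of 0.21. These were Taf1 and Dnajc6, the clathrin-uncoating cofactor auxilin (1.55, adjusted p 0.0195). Sema5a, a semaphorin guidance cue, was at 81.6 and 107 against 555 and 482 (2.46, adjusted p 0.00942), the 1 called gene of 40 axon guidance genes.

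Of the 57 lists 8 held 0 called genes in limma. They were the SAGA and ATAC coactivators, core pluripotency genes, fibroblast feeder markers, mesoderm and endoderm differentiation genes, the heat shock and unfolded protein response, amino acid response genes, mitochondrial transcripts and HOX genes. Of their 147 tested members 23 were at an unadjusted p under 0.05, edgeR called 0, and DESeq2 called 4, all in the amino acid response.

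Outside the lists, the largest differences of well-measured genes included Ccdc136 (2.46), Megf11 (2.24), Arrb1 (2.10), a beta-arrestin, Ap3b2 (2.00), a neuronal adaptor subunit, and the RNA-binding proteins Rbm47 (1.89) and Rbm20 (1.86) among higher genes. Among lower genes they included Caprin2 (-1.87), Adam23 (-1.65), Tor3a (-1.62), a torsin ATPase, Iffo1 (-1.44) and Tunar (-1.39). Tmsb4x, the actin-binding thymosin beta 4 on the X chromosome, was at 6735 and 6472 against 1998 and 3948 (-1.23), with 5481 to 7119 in the other 3 libraries. The double deletion line was the low group for Tmsb4x.

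The called genes were spread unevenly over chromosomes. Chromosomes 6 and 8 held 83 of the 184 lower genes (45.1%) and 13 of the 298 higher genes (4.36%). On chromosome 6, 63 of 739 tested genes were lower and 7 higher, and the median of all its genes was -0.12. On chromosome 8, 20 of 811 were lower and 6 higher, with a median of -0.15. Against the wild-type library, the median of chromosome 6 was 0.16 and 0.14 in the single deletion libraries and 0.01 and -0.01 in the double deletion libraries. For chromosome 8 these medians were 0.07 and 0.24 against 0.01 and -0.01. Conv-dSVA_F was shifted further in the same direction, to 0.41 and 0.36 on chromosome 6 and to 0.63 and 0.44 on chromosome 8. Replicate 1 of the single deletion line was about as far from wild type on chromosome 8 (0.069) as on chromosome 11 (0.068).

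Chromosome 18 shifted in 1 library. Its median against wild type was -0.09 and -0.07 in the single deletion line, -0.03 in replicate 1 and 0.51 in replicate 2 of the double deletion line, and 18 of its 372 tested genes were higher and 1 was lower. In a further fit the medians of the autosomes and of the X chromosome were set equal in each library. The Y and mitochondrial chromosomes, with few genes, were left unchanged. This fit called 495 genes, and Nanog (adjusted p 0.0570), Junb (0.0532), Rad52 (0.0774), Atg7 (0.0635), Igfbp2 (0.0556), Birc5 (0.0545) and Pdpk1 (0.0556), all given above as called, no longer passed. Ogg1, Med21, Mest, Spry4 and Lama3 still did. Leaving out chromosomes 6, 8, 18 and Y, 363 genes were called, 263 higher and 100 lower, of 13311 tested. A difference in chromosome number and a regional change in expression cannot be told apart from these values.

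**Figure D4:**
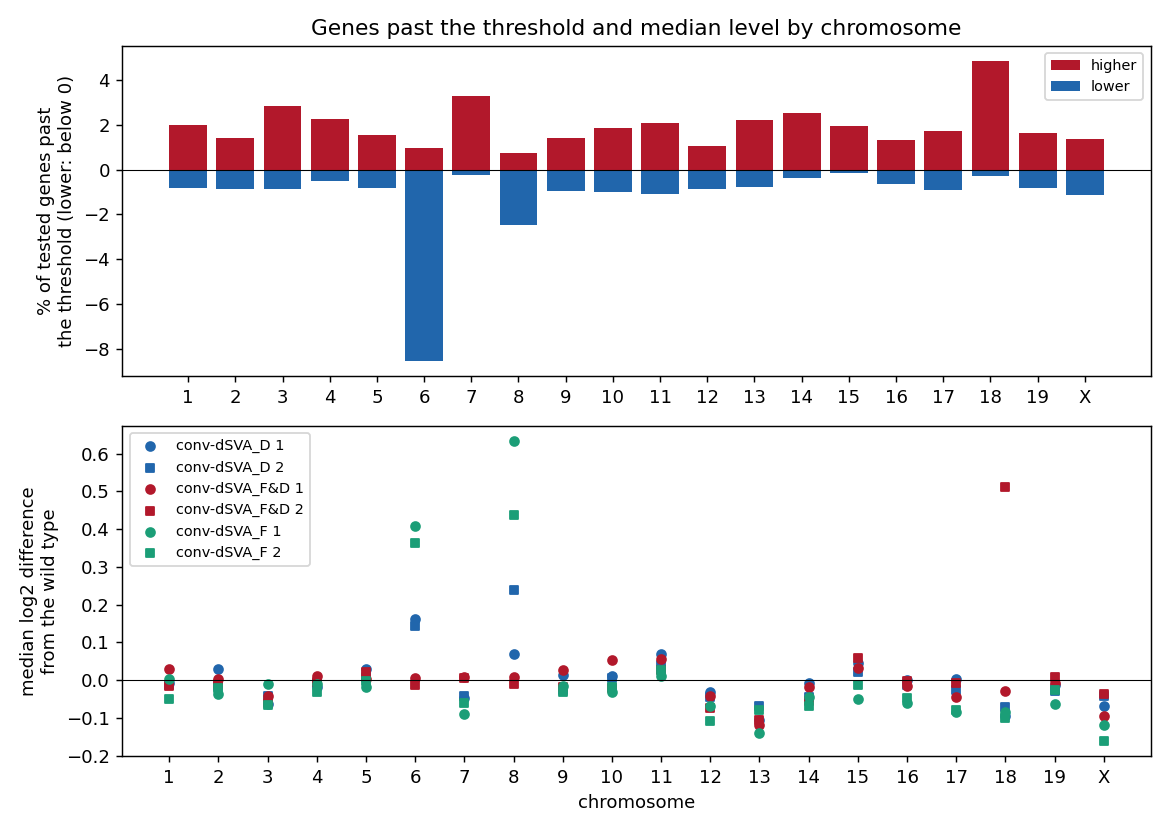
The upper panel gives the percentage of tested genes on each chromosome that were higher (up) or lower (down) in conv-dSVA_F&D. In the lower panel, medians of the log2 difference from the wild-type library are plotted by chromosome for the 6 libraries of the edited lines. Chromosomes 6 and 8 are above 0 in the single deletion libraries (up to 0.16 and 0.24) and higher still in conv-dSVA_F (up to 0.41 and 0.63), and chromosome 18 is at 0.51 in replicate 2 of the double deletion line.

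Some called genes lay next to each other. On chromosome 6, 10 lower genes stood between 113046225 and 113740743 (GRCm38): Thumpd3, Setd5, Mtmr14, Ogg1, Arpc4, Rpusd3, Jagn1, Emc3, Brk1 and Sec13. A further 4 lower genes, Phb2, Spsb2, Cdca3 and Ptms, lay between 124712336 and 124920103 on the same chromosome. On chromosome 7, 5 higher genes, Alpk3, Slc28a1, Pde8a, Ap3b2 and Whamm, lay between 81057600 and 81596836, and the whole chromosome held 40 higher and 3 lower of 1220 tested. On chromosome 11, Acsf2, Tmem92, AA623943 and Ppp1r9b were all higher between 94557102 and 95006899. On chromosome 3, Mindy1, Gm4349, Hormad1 and Mcl1 were higher between 95281345 and 95663176. On chromosome 8, Gcdh, Rnaseh2a, Junb and Wdr83 were lower between 84886393 and 85081306.

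Where the other lines lay differed between higher and lower genes. Each gene's mean was placed on a scale from 0 at the single deletion line to 1 at the double deletion line, and called near a line at up to 0.25 or from 0.75. Of the 298 higher genes, wild type was near the double deletion line or beyond it for 177 (59.4%), near the single deletion line for 21 (7.05%) and between for 100. The line conv-dSVA_F was near the double deletion line for 88 (29.5%), near the single deletion line for 81 (27.2%) and between for 129. For 70 genes (23.5%) both were with the double deletion line, which leaves the single deletion line as the low group. H19, Zscan4c, Zscan4d, Krt8 and Krt18 had this pattern.

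Of the 184 lower genes, wild type was near the double deletion line for 82 (44.6%) and near the single deletion line for 23 (12.5%). The line conv-dSVA_F was near the double deletion line for 19 (10.3%) and near the single deletion line for 81 (44.0%). Both were near the double deletion line for 13 genes, and both near the single deletion line for another 13 (7.07%). Tex13b and Tro belonged to the first of these groups, and Tmsb4x to the second. These positions share the single and double deletion libraries with the test that chose the genes and are given as a description.

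**Figure D5:**
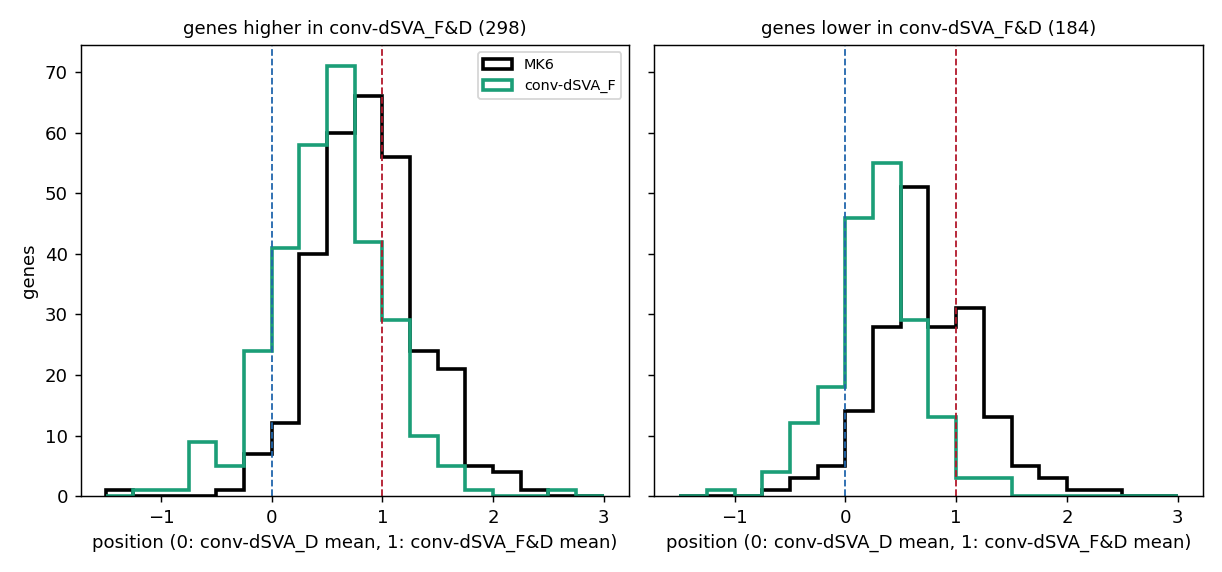
Histograms give the position of MK6 and of conv-dSVA_F on a scale from 0 (conv-dSVA_D) to 1 (conv-dSVA_F&D) for the 298 higher and the 184 lower genes, with values beyond the range counted in the end bins. MK6 is near or past 1 for 177 of the higher genes, and conv-dSVA_F near or below 0 for 81 of the lower genes.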

How the data were processed

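RNA was prepared with RNeasy columns and a stranded total RNA kit, per the labels' protocols. The submitters' processing notes name the build mm10, featureCounts 1.6.3, STAR 2.7.3, DESeq2, Picard 2.18.20 and Trimmomatic 0.36. The sources used here do not give the strand setting of the counting, and values of overlapping genes are uncertain. The deposited table holds a signal, gene counts divided by size factors by the authors. Whole reads were recovered for 100% of values within 0.1 read.

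Genes with a mean of at least 10 were tested on log2(value + 1) with limma 3.58.1 (R 4.3.3, trended variance) over 7 libraries and 4 line means, with Benjamini-Hochberg adjustment over 15240 genes and a threshold of 0.05. Fold changes are on this scale and understate low genes. edgeR 4.0.16 and DESeq2 1.42.0 ran on the recovered reads as alternatives. Coordinates are GENCODE M21 or RefSeq, GRCm38, matching 15117 genes tested. Named genes were Taf1, Y-linked genes, up to 25 genes a direction with the largest differences at a mean of at least 100, and list members past or nearest the threshold. The members and lists were chosen with earlier results of these data known. Promoters are the 250 bases before RefSeq starts (GRCm38.p6), present for 360 of the 482 called genes.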

Additional observations from a re-analysis of the deposited data

How the results depend on the processing

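All 482 called genes kept their direction in every setting that tested them. The libraries of both sides did not overlap in any of the 482, so leaving out 1 library could not reverse a direction. The number called ranged from 0 to 765 when 1 library was left out in limma. It was 0 without replicate 1 of the single deletion line, 42 without its replicate 2, 765 (371 higher, 394 lower) and 300 without replicate 1 and 2 of the double deletion line, 248 and 241 without replicate 1 and 2 of conv-dSVA_F, and 477 without MK6. On recovered reads, alternatives chosen after seeing the data, the same omissions of the 4 compared libraries gave 0, 4, 493 and 315 in edgeR and 367, 381, 826 and 629 in DESeq2. With no filter limma called 0 genes (3823 at an unadjusted p under 0.05), with no variance trend 0 (2452), with only the 4 compared libraries 246, and DESeq2 on all libraries 1054 (659 higher, 395 lower). A pseudocount of 0.5 gave 436, one of 5 gave 525, a mean of at least 50 gave 507, TMM scaling 473, and edgeR on all libraries 463. The share of higher calls was 48.5% without replicate 1 of the double deletion line and 92.9% without replicate 2 of the single deletion line, against 61.8% in all libraries. The Taf1 difference ranged from 1.396 to 1.603 in limma over the omissions, with an adjusted p of 0.0600 without replicate 1 of the single deletion line. In edgeR without that library Taf1 differed by 1.41 (adjusted p 0.0667), and without replicate 2 of that line by 1.62 (adjusted p 0.0562). With no filter (adjusted p 0.148) and with no trend (0.142) the Taf1 difference stayed at 1.50. For these changes the cause was not tested. No paired analysis was possible because the labels give no replicate numbers, and libraries were numbered in accession order.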

Other observations

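B230303O12Rik, a long noncoding RNA on chromosome 5, was at 11477 normalized counts in replicate 2 of the double deletion line and at 7.32 in its replicate 1. The single deletion libraries held 12.5 and 0.82, both conv-dSVA_F libraries 0 and MK6 1.09, and the gene did not pass (5.96 ± 2.58, adjusted p 0.237). Only the 4 compared libraries were searched for such levels. In these, it was the 1 tested gene that reached 200 in a single library at a level at least 8-fold above all 6 others. In the same 4 libraries, Peg10 was the 1 gene at least 8-fold below the others, among genes with at least 100 in each of the other 6. It was at 42.5 in replicate 2 of the single deletion line, where the lowest of the other 6 libraries held 387.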
